A study of Mus musculus with 23 samples.

Results

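The 7 genes described here were Foxp3, Ikzf2, Ccr8, Tnfrsf18, Tnfrsf4, Tnfrsf9 and Icos, chosen by symbol as genes of regulatory T cells and of costimulatory receptors, out of 26869 genes in the count table. They were followed by host line and antibody over all 23 tumors, as depth-normalized counts and as counts relative to Cd3e, a chain of the T cell receptor complex. All 7 passed the filter on low counts in the fits over all tumors.

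Regulatory T cells are CD4+ T cells that restrain immune responses, and they are commonly found in tumors. Foxp3 encodes the transcription factor that defines the lineage, Ikzf2 encodes Helios, a transcription factor of many regulatory T cells, and Ccr8 encodes a chemokine receptor found on regulatory T cells in tumors. Tnfrsf18 (GITR), Tnfrsf4 (OX40) and Tnfrsf9 (CD137) are costimulatory receptors of the tumor necrosis factor receptor family that act through TRAF adaptors and NF-κB, and Icos is a costimulatory receptor of the CD28 family. Activated effector T cells also express these receptors, so none of the 4 marks regulatory T cells alone.

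RNA was sequenced from whole tumors of MC38, a mouse colon carcinoma cell line of C57BL/6 origin. The 6 kinds of host were F1 offspring of C57BL/6J and a Collaborative Cross (CC) line, a panel of recombinant inbred mice with diverse founders: CC001/UncJ, CC002/UncJ, CC075/UncJ, CC036/UncJ, CC079/TauUncJ or CC080/TauUncJ. Female hosts of 8 to 12 weeks were injected under the skin with MC38 cells, and those with tumors of 75 to 110 mm3 received a single dose of 200 µg of a PD-1 blocking antibody (aPD1, clone 29F.1A12) or of an isotype control antibody (clone 2A3). Tumors were collected 48 h after the dose. There were 2 tumors for each line and antibody, and 1 for CC080F1 given aPD1. The study's text, not the labels, classed CC001F1, CC002F1 and CC075F1 as responders (R) and CC036F1, CC079F1 and CC080F1 as non-responders (NR), which gave 6 isotype and 6 aPD1 tumors in R hosts and 6 isotype and 5 aPD1 tumors in NR hosts. All hosts shared a C57BL/6J parent and carried the same tumor line. Each line belonged to a single class, and tumors from the same line entered the main class tests as separate samples, so these tests do not set class against the spread between lines. A fit with line as a random effect does so and is given beside them over all tumors and among aPD1 tumors. The labels call the tumors of a group biological replicates.

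The median library held 42327589 expected counts, with totals between 14494014 and 71868253. The 6 shallow libraries (14494014 to 18354585 counts) came from 2 R and 4 NR tumors, and the remaining 17 held at least 37242363 counts. Values without the shallow libraries are given beside the pooled ones. In 3 tumors, CC002F1 isotype replicate 1, CC079F1 aPD1 replicate 1 and CC080F1 aPD1 replicate 1, the lymph node transcript Glycam1 was detected, at 383, 287 and 289 normalized counts, while the other tumors were at 0 counts. T cell markers were present in every tumor, but at very different levels: the summed normalized count of 13 T cell genes ran from 1009 to 2943 in NR isotype tumors and from 2128 to 7547 in R aPD1 tumors. In these bulk samples, fewer cells of a type and less RNA per cell cannot be told apart.

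The genes lie on 4 chromosomes of the mouse genome (GRCm38, GENCODE). Tnfrsf9 (ENSMUSG00000028965) spans chr4:150914562-150946102 on the plus strand. Further along the same chromosome, Tnfrsf4 (ENSMUSG00000029075, chr4:156013843-156016612, plus) and Tnfrsf18 (ENSMUSG00000041954, chr4:156026164-156028895, plus) are neighbours separated by 9551 bases. Icos (ENSMUSG00000026009, chr1:60977927-61000320, plus) and Ikzf2 (ENSMUSG00000025997, chr1:69531214-69687245, minus) share chromosome 1, Ccr8 (ENSMUSG00000042262) is at chr9:120092114-120094906 on the plus strand, and Foxp3 (ENSMUSG00000039521) is at chrX:7573644-7595245 on the plus strand. The protein-coding genes overlap other annotated transcripts to unequal degrees. Of the exon bases of Foxp3, 18.6% were shared with Flicr on the same strand and 12.9% with Ccdc22 on the opposite strand, and 27.2% of those of Tnfrsf18 were shared with the antisense gene Gm16008. Whether the counting used strand is not given in the sources used here, so reads of these overlapping genes cannot be told apart, and values of Foxp3 and Tnfrsf18 were estimates with fractional counts in 22 and 20 of the 23 tumors. The other 5 genes had whole counts in every tumor.

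The RefSeq windows (GRCm38.p6) of 250 bases that end at the annotated start of the chromosome 4 receptors and of Ccr8 are shown because Tnfrsf9, Tnfrsf4 and Ccr8 were called among aPD1 tumors below, and Tnfrsf18 is the neighbour of Tnfrsf4. Icos was also called there, but the set of windows used held none for Icos or Ikzf2. Capitals mark matches to the letters of the kappa B motif (GGG, any 2 bases, TT, any base and CC, on either strand) or of the AP-1 motif (TGANTCA, the same on both strands). Tnfrsf9 has a window at each of its 2 RefSeq starts, and the one shown, chr4:150927749-150927998, ends at the second. RefSeq starts differ from those of the GENCODE spans given above. The Tnfrsf9 window lies inside its span, and those of Tnfrsf18 and Ccr8 run into theirs. The Tnfrsf4 window is chr4:156013445-156013694, that of Tnfrsf18 is chr4:156026072-156026321 and that of Ccr8 is chr9:120091883-120092132, all on the plus strand.
Tnfrsf9: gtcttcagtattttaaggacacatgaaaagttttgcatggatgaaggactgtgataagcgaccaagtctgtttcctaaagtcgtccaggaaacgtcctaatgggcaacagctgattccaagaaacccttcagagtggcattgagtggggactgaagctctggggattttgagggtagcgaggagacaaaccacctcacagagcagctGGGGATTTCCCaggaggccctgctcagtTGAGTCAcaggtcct
Tnfrsf4: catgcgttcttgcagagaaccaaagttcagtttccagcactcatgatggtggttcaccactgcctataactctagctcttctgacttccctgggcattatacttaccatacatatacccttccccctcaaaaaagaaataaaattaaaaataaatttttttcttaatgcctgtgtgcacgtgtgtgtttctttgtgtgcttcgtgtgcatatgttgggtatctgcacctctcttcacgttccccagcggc
Tnfrsf18: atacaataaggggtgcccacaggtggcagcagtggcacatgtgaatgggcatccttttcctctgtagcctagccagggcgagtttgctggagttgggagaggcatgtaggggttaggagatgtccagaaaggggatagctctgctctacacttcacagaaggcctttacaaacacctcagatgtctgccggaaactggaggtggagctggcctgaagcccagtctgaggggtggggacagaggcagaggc
Ccr8: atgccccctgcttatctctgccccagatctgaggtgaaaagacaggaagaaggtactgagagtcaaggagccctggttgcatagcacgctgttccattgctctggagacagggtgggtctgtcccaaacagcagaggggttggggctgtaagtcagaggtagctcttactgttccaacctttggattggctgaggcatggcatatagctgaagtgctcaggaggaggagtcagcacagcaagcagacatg
Near its 3′ end, the Tnfrsf9 window held GGGGATTTCCC, which matches the kappa B letters at 2 overlapping places, and TGAGTCA, which matches those of AP-1. The windows of Tnfrsf4, Tnfrsf18 and Ccr8, the first start of Tnfrsf9 and both starts of Foxp3 held no match to either motif, nor to an interferon regulatory factor motif (GAAA, any 2 bases and GAAA, on either strand). Over 32851 such windows, 6.75% held the AP-1 letters, 4.11% the kappa B letters and 2.98% those of the interferon regulatory factor motif. Such matches describe the letters only.

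Levels differed between the genes when normalized counts were divided by exon length. Tnfrsf9 had the highest mean, 172.8 ± 71.0 normalized counts per kb of exon (SD, n = 23), and was above Tnfrsf18 in 21 of 23 tumors. Tnfrsf18 (97.9 ± 26.6) and Ikzf2 (93.0 ± 13.4) were next to each other, with Tnfrsf18 the higher in 13 tumors. Tnfrsf4 (58.2 ± 21.3) and Icos (52.0 ± 40.2) followed, and Ccr8 (18.1 ± 12.8) and Foxp3 (17.4 ± 5.74) were lowest, with Ccr8 the higher in 11 of 23 tumors. Between the lowest and highest tumor, levels differed by 1.68-fold for Ikzf2, 3.80-fold for Foxp3, 3.82-fold for Tnfrsf18 and 45.6-fold for Icos, whose lowest tumor was CC080F1 isotype replicate 2 at 15.4 normalized counts.

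**Figure D1:**
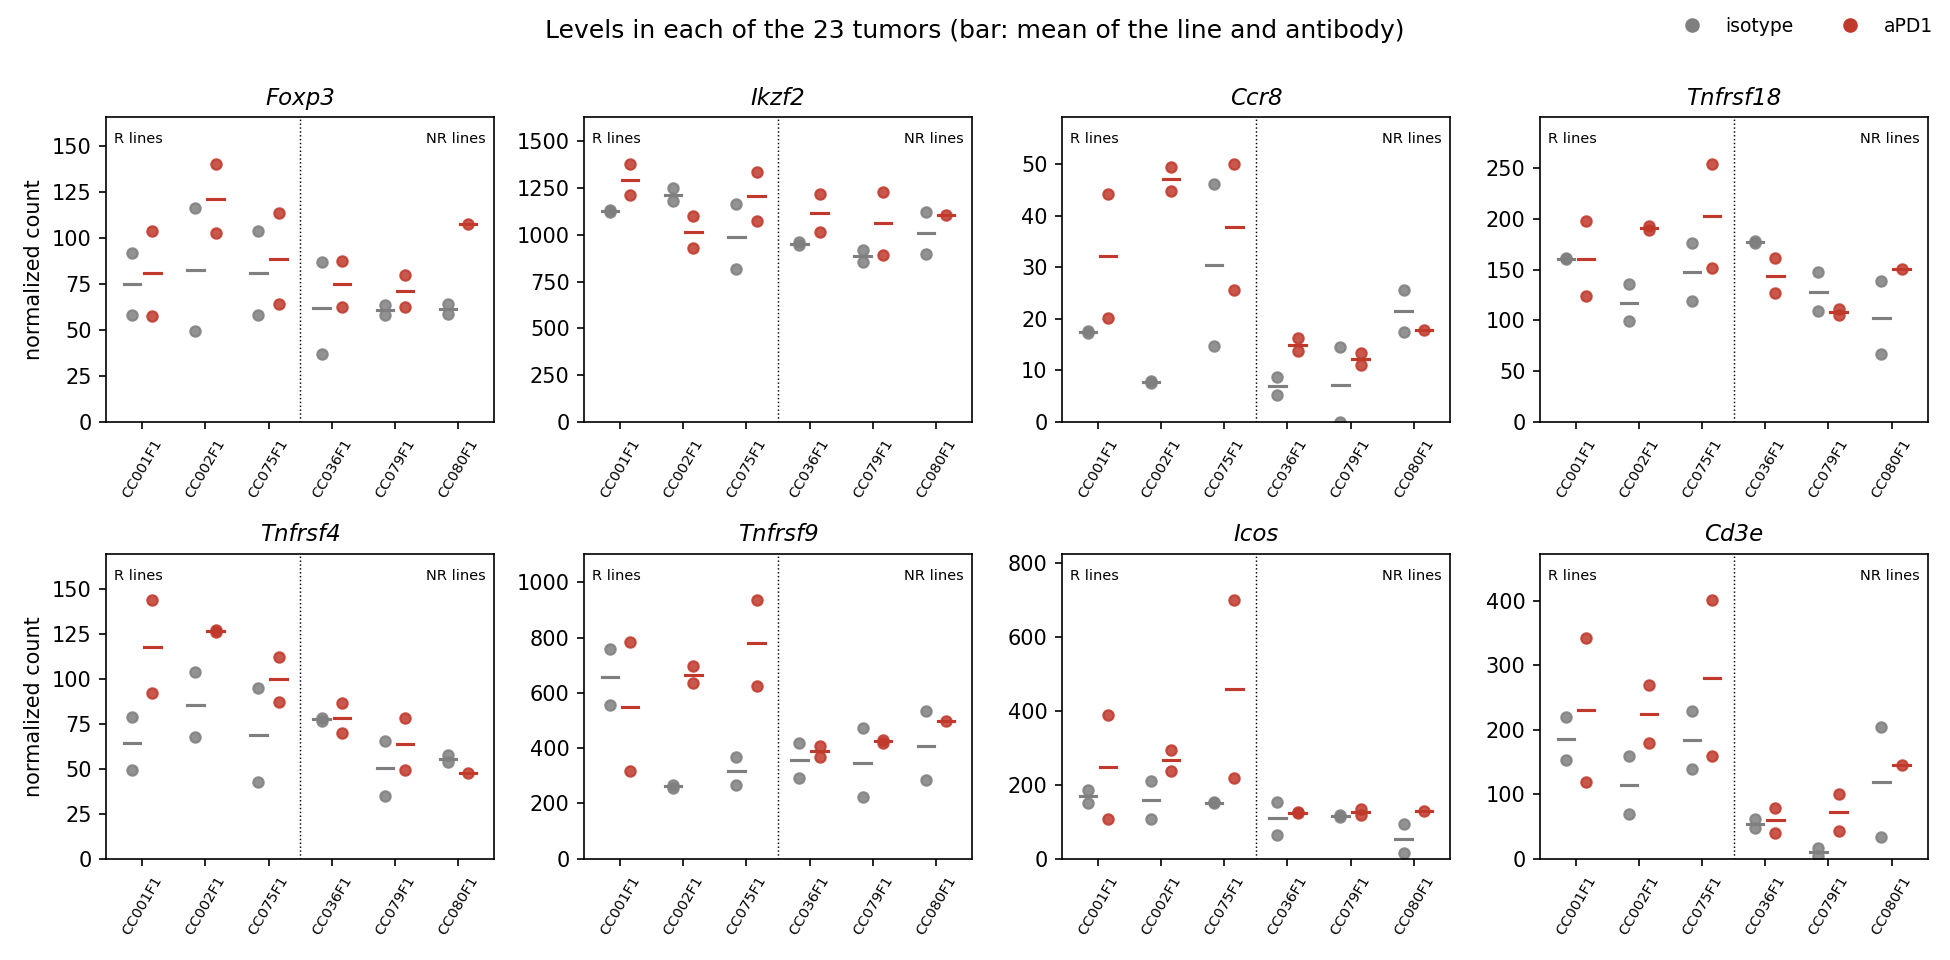
Normalized count (expected count over the DESeq2 size factor) of each of the 7 genes and of Cd3e in every tumor, by host line, with isotype tumors in grey, aPD1 tumors in red and bars at group means; R lines are on the left and NR lines on the right of each panel. Icos, Tnfrsf4 and Ccr8 points of R aPD1 tumors mostly sit above those of NR lines, while Foxp3 and Ikzf2 points overlap between the classes.

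The first question was whether these genes differed between R and NR tumors. Across the 23 tumors, in a fit that included antibody, Icos, Tnfrsf4 and Ccr8 were higher in R tumors, and 0 of the 7 were lower. This is 3 of 7 genes, where 7.66% of all genes tested were higher at the same threshold, 6.78% were lower and 14.4% were called in either direction. The median log2 difference of the 7 genes was 0.38 and that of all genes was -0.000425. All 7 estimates were positive.

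Icos had the clearest difference. In R tumors its normalized count was 108 to 700 with a median of 199, and in NR tumors 15.4 to 154 with a median of 119. The log2 difference was 1.06 ± 0.25 (SE, n = 12 and 11 tumors, adjusted p = 0.000579, DESeq2 Wald test with Benjamini-Hochberg adjustment), and it passed under all 39 alternatives, at 0.87 to 1.17. The ranges overlapped, with CC001F1 aPD1 replicate 1 and CC002F1 isotype replicate 2 (both at 108) below most NR tumors.

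Ccr8 had few counts in every tumor. It ran from 7.62 to 50.1 normalized counts in R tumors (median 22.9) and from 0 to 25.6 in NR tumors (median 13.7), with 0 counts in CC079F1 isotype replicate 2. The log2 difference was 1.05 ± 0.34 (adjusted p = 0.0217). Tnfrsf4 ran from 42.9 to 144 in R tumors (median 93.8) and from 35.1 to 86.7 in NR tumors (median 65.4), a log2 difference of 0.54 ± 0.18 (adjusted p = 0.0238). These calls were less stable than that of Icos: of 39 alternatives, Ccr8 passed in 31 and Tnfrsf4 in 27. Both passed without the shallow libraries (adjusted p = 0.0398 and 0.0126), and neither passed in edgeR or with line as a random effect, where Icos alone did. Without the 2 NR tumors with lymph node transcripts neither Ccr8 (0.97, adjusted p = 0.0703) nor Tnfrsf4 (0.40, adjusted p = 0.128) passed, and without all 3 such tumors Tnfrsf4 had 0.33 (adjusted p = 0.239) and Ccr8 1.08 (adjusted p = 0.0405). Single tumors also decided these calls: Ccr8 had 0.84 (adjusted p = 0.0628) without CC075F1 isotype replicate 2, and Tnfrsf4 had 0.47 to 0.49 (adjusted p = 0.054 to 0.0579) without CC001F1 aPD1 replicate 2, CC002F1 isotype replicate 1, CC079F1 aPD1 replicate 1 or CC080F1 aPD1 replicate 1.

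The remaining genes did not pass over all tumors. Foxp3 had a log2 difference of 0.32 ± 0.18 (adjusted p = 0.239), with 49.5 to 140 normalized counts in R and 36.9 to 108 in NR tumors. Ikzf2 had 0.16 ± 0.08 (adjusted p = 0.16), Tnfrsf18 0.26 ± 0.15 (adjusted p = 0.268) and Tnfrsf9 0.38 ± 0.19 (adjusted p = 0.169). Without CC075F1 isotype replicate 2, Ikzf2 had 0.20 and passed (adjusted p = 0.0474). Foxp3 and Ikzf2, the transcription factor genes, had smaller estimates than Icos and Ccr8, and this difference between genes was not tested. Cd3e itself was higher in R tumors by 1.47 ± 0.40 (adjusted p = 0.0044), with 68.6 to 400 normalized counts against 3.97 to 205, while Cd4 had 0.16 ± 0.25 (adjusted p = 0.755).

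The classes were also compared within each antibody. Among the 12 isotype tumors, 0 of the 7 genes passed in DESeq2, against 5.53% of all genes, and edgeR called 0. At an unadjusted p under 0.05 there were 2 (Ikzf2 and Icos). Counts at an unadjusted p, here and below, have no share of all genes beside them and are not read as an excess. Icos had 108 to 211 normalized counts in R isotype tumors (median 153) and 15.4 to 154 in NR isotype tumors (median 103), a log2 difference of 0.77 ± 0.31 (adjusted p = 0.123). The Ikzf2 difference was 0.22 ± 0.10 (adjusted p = 0.207), and Foxp3 had 0.36 ± 0.27 (adjusted p = 0.481). Tnfrsf18 (0.04 ± 0.22), Tnfrsf9 (0.14 ± 0.33) and Tnfrsf4 (0.27 ± 0.28) had estimates below or near their standard errors, and Ccr8 (0.65 ± 0.63) received no adjusted p under DESeq2's filter. Without the shallow libraries Tnfrsf9 had -0.47, Tnfrsf18 -0.15, Tnfrsf4 0.45 and Icos 0.75, and without CC001F1 isotype replicate 2 alone Tnfrsf9 had -0.12. Without CC075F1 isotype replicate 2, Ikzf2 was called at 0.29 (adjusted p = 0.00673).

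Among the 11 aPD1 tumors, Ccr8, Icos, Tnfrsf4 and Tnfrsf9 were higher in R hosts. These were 4 of 7 genes, beside 5.94% of all genes that were higher and 7.93% called in either direction, with a median log2 difference of 0.64 over the 7 genes and -0.0125 over all genes. Ccr8 had 20.1 to 50.1 normalized counts in the 6 R tumors (median 44.5) and 11.02 to 17.8 in the 5 NR tumors (median 13.7). Tnfrsf4 had 87.3 to 144 (median 119.5) against 47.8 to 86.7 (median 70.2). The ranges of these genes did not overlap between the classes, as was the case for 1.89% of all genes in this direction. The log2 differences were 1.44 ± 0.35 for Ccr8 (adjusted p = 0.00122) and 0.81 ± 0.22 for Tnfrsf4 (adjusted p = 0.00589).

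Icos and Tnfrsf9 had wider ranges in R aPD1 tumors. Icos ran from 108 to 700 (median 267) in R tumors and stayed within 119 to 134 (median 127) in NR tumors, a log2 difference of 1.36 ± 0.34 (adjusted p = 0.00183). Tnfrsf9 ran from 317 to 935 (median 666) against 369 to 499 (median 419), a difference of 0.64 ± 0.21 (adjusted p = 0.0282). For both genes a single tumor, CC001F1 aPD1 replicate 1, was below every NR aPD1 tumor, and CC075F1 aPD1 replicate 1 was the highest of all. The Tnfrsf9 call passed in 11 of 25 alternatives and was not made without the shallow libraries (0.65, adjusted p = 0.0927) or without any 1 of 7 of the 11 tumors (adjusted p = 0.0597 to 0.101), whereas Ccr8 passed in 24, Icos in 22 and Tnfrsf4 in 21. Without the 2 tumors with lymph node transcripts, Tnfrsf4 had 0.57 (adjusted p = 0.107) and the other 3 genes passed. In edgeR only Ccr8 passed, and in voom with line as a random effect 0 genes did.

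Tnfrsf18, Foxp3 and Ikzf2 did not pass among aPD1 tumors. Tnfrsf18 had 124 to 254 normalized counts (median 191) in R and 105 to 162 (median 127) in NR tumors, a log2 difference of 0.49 ± 0.20 (adjusted p = 0.117). Foxp3 had 57.6 to 140 (median 103) against 62.3 to 108 (median 79.7), a difference of 0.28 ± 0.26 (adjusted p = 0.618), and Ikzf2 had 0.10 ± 0.12 (adjusted p = 0.741). Foxp3 was called in no alternative of any comparison of normalized counts. Over the same tumors the summed T cell markers were 2128 to 7547 (median 4120) in R and 1157 to 3043 (median 1603) in NR hosts, and their part in the results was not tested. The 2 NR aPD1 tumors with lymph node transcripts had Foxp3 at 79.7 and 108, within and at the top of the NR range.

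**Figure D2:**
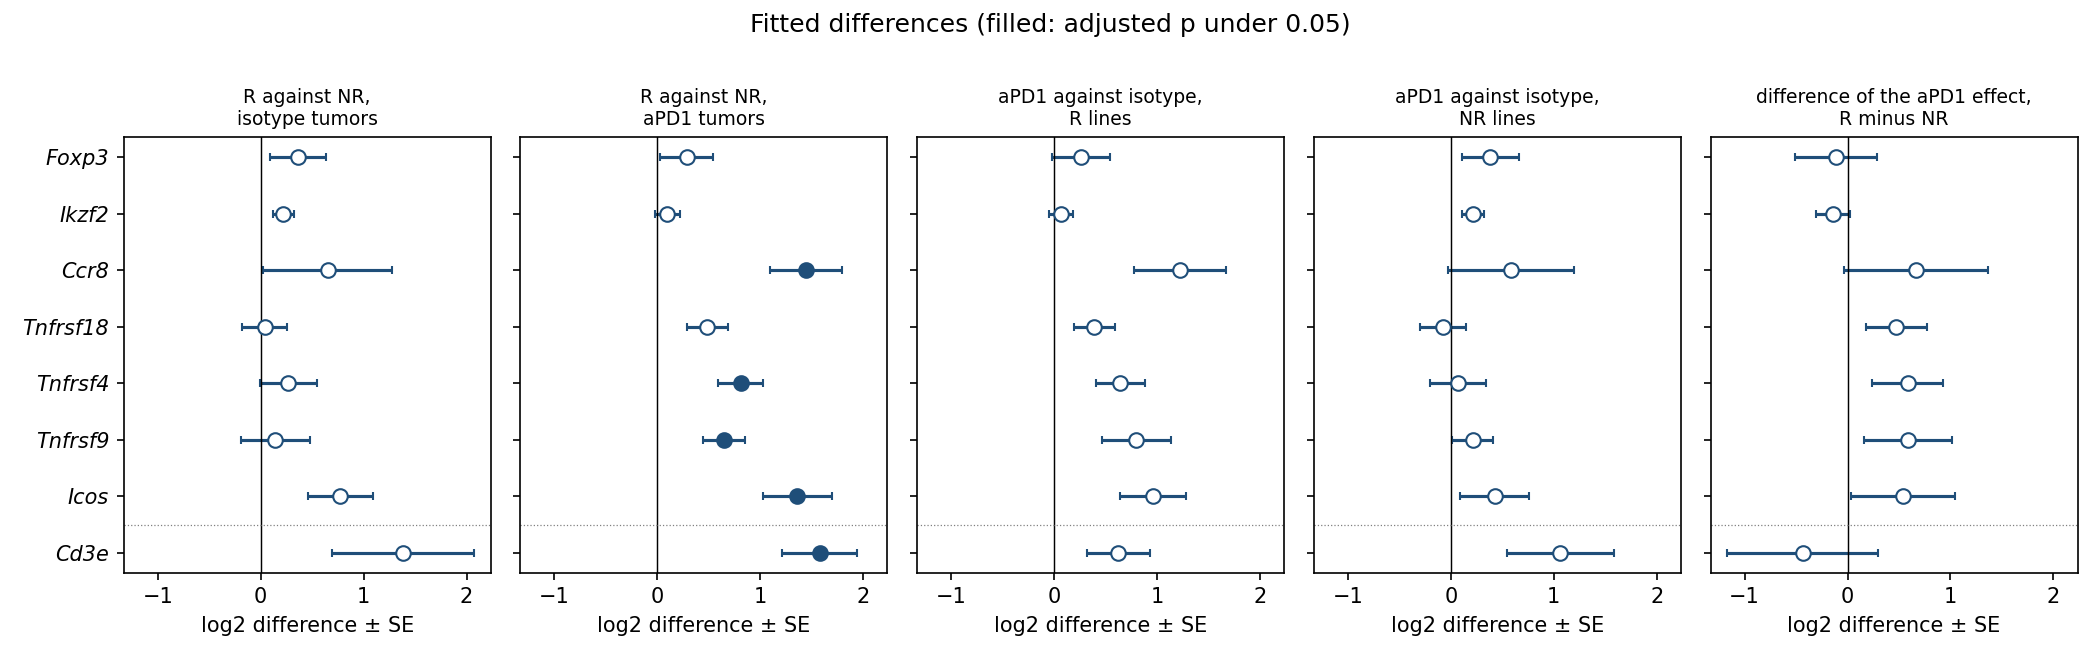
Log2 difference with its standard error for each of the 7 genes and for Cd3e in 5 comparisons. These are R against NR in isotype and in aPD1 tumors, aPD1 against isotype in R and in NR lines, and the difference of the aPD1 effect, R minus NR. Filled points have a DESeq2 adjusted p under 0.05. Of the 7 genes, Icos, Ccr8, Tnfrsf4 and Tnfrsf9 are filled among aPD1 tumors, and none is filled in the other comparisons shown.

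The host lines were also ordered by their means. For Foxp3, Ikzf2, Ccr8, Tnfrsf4, Tnfrsf9 and Icos, the means of the 3 R lines over both antibodies were above those of the 3 NR lines, as they were for 10.5% of all genes. In Foxp3 the margin was narrow: CC002F1 had 102 ± 38.3 normalized counts (SD, n = 4), CC075F1 84.8 ± 27.7 and CC001F1 77.7 ± 23.6, and CC080F1 had 77.0 ± 26.8 (n = 3), CC036F1 68.3 ± 23.9 and CC079F1 65.9 ± 9.49. For Icos the order was CC075F1 (306 ± 265), CC002F1 (213 ± 78.8), CC001F1 (209 ± 125), CC079F1 (121 ± 9.30), CC036F1 (117 ± 37.4) and CC080F1 (79.2 ± 58.2). The CC080F1 means hold 2 isotype tumors and 1 aPD1 tumor. Tnfrsf18 was the exception, with CC036F1 (160.5 ± 23.9) above CC002F1 (154 ± 44.9).

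Lines next to each other in these orders overlapped in range for every gene, except Ccr8 in CC080F1 (17.4 to 25.6) and CC036F1 (5.30 to 16.3). Lines within a class could not be separated for any of the 7 genes by the DESeq2 likelihood ratio test: the smallest adjusted p within NR lines was 0.506, for Tnfrsf4, and all were 1 within R lines. These were 0 of 7 genes in both classes, with 0 at an unadjusted p under 0.05 and 0 in edgeR, against 1.05% of all genes within R and 9.46% within NR lines. Without CC001F1 aPD1 replicate 1, Tnfrsf9 differed among R lines (adjusted p = 0.0183).

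The second question was what changed 48 h after aPD1. Within R lines, with line as a term, 0 of 7 genes passed in DESeq2, where 5.26% of all genes were called and 4.85% were higher. At an unadjusted p under 0.05 there were 4 (Ccr8, Tnfrsf4, Tnfrsf9 and Icos), a count with no share of all genes beside it, and edgeR called 0. The estimates of all 7 genes were positive, with a median log2 difference of 0.64 against -0.0124 over all genes.

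Ccr8 had 7.62 to 46.1 normalized counts in the 6 R isotype tumors (median 15.9) and 20.1 to 50.1 in the 6 R aPD1 tumors, with a log2 difference of 1.22 ± 0.45 (adjusted p = 0.0893). The groups overlapped through CC075F1 isotype replicate 2 alone, at 46.1, as the other 5 isotype tumors were at or below 17.6. In CC002F1 the change was from 7.92 and 7.62 to 49.5 and 44.8. Icos had a difference of 0.96 ± 0.32 (adjusted p = 0.0537), and in CC075F1 it went from 154.5 and 149.7 in isotype to 699.8 and 218.2 in aPD1 tumors. Tnfrsf4 had 0.64 ± 0.24 (adjusted p = 0.0993), with higher line means after aPD1 in 3 of 3 R lines.

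Tnfrsf9 split the R lines. In CC002F1 it was 256.5 and 267.6 normalized counts with isotype and 697 and 635 with aPD1, and in CC075F1 it was 368 and 268 with isotype and 935 and 626 with aPD1. In CC001F1 the order was not the same, with 557 and 758 in isotype tumors and 317 and 783 in aPD1 tumors. The log2 difference over R lines was 0.80 ± 0.34 (adjusted p = 0.175), and it was 1.31 (adjusted p = 1.08e-12) without line CC001F1. As CC001F1 was the R line whose mean went the other way, the value without it describes the lines that rose and is no separate support. Foxp3 (0.26 ± 0.28, adjusted p = 0.719), Ikzf2 (0.07 ± 0.12, adjusted p = 0.854) and Tnfrsf18 (0.39 ± 0.20, adjusted p = 0.319) had smaller estimates. Cd3e had 0.62 ± 0.31 (adjusted p = 0.286).

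Which genes passed in R lines depended on the libraries. Without the shallow ones, Ccr8 (1.498, adjusted p = 0.04), Icos (1.16, adjusted p = 0.0222) and Tnfrsf9 (0.98, adjusted p = 0.0137) were higher after aPD1. The same 3 genes passed without CC001F1 aPD1 replicate 1, a tumor in which Icos (108), Ccr8 (20.1), Tnfrsf9 (317), Tnfrsf18 (124) and Cd3e (119) were the lowest of the R aPD1 tumors.

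Within NR lines, 0 of 7 genes passed, beside 0.0448% of all genes. At an unadjusted p under 0.05 there was 1 (Ikzf2), and edgeR called 0. The log2 differences were 0.39 ± 0.28 for Foxp3, 0.21 ± 0.11 for Ikzf2, 0.58 ± 0.62 for Ccr8, -0.08 ± 0.23 for Tnfrsf18, 0.07 ± 0.27 for Tnfrsf4, 0.21 ± 0.20 for Tnfrsf9 and 0.43 ± 0.34 for Icos, and their median was 0.21. Line CC080F1 had a single aPD1 tumor, in which Foxp3 was 108 against 64.3 and 58.9 in the isotype tumors and Icos 129 against 93.1 and 15.4. This tumor also held lymph node transcripts.

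Whether aPD1 acted differently in the classes was tested with an interaction term, and 0 of 7 genes passed (0.0342% of all genes), 0 at an unadjusted p under 0.05 and 0 in edgeR. The estimates, R minus NR, were 0.67 ± 0.70 for Ccr8, 0.58 ± 0.34 for Tnfrsf4, 0.58 ± 0.43 for Tnfrsf9, 0.54 ± 0.51 for Icos, 0.47 ± 0.30 for Tnfrsf18, -0.11 ± 0.40 for Foxp3 and -0.14 ± 0.16 for Ikzf2. With standard errors of 0.16 to 0.70 on the log2 scale, differences of this size between the classes could not be resolved. By line, the mean log2(normalized count + 1) after aPD1 was above that with isotype in 6 of 6 lines for Foxp3 and Icos, in 5 of 6 for Ikzf2, Ccr8, Tnfrsf4 and Tnfrsf9, in 3 of 6 for Tnfrsf18, and in 6 of 6 for Cd3e. The line that went the other way was CC002F1 for Ikzf2, CC080F1 for Ccr8 and Tnfrsf4, and CC001F1 for Tnfrsf9.

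**Figure D3:**
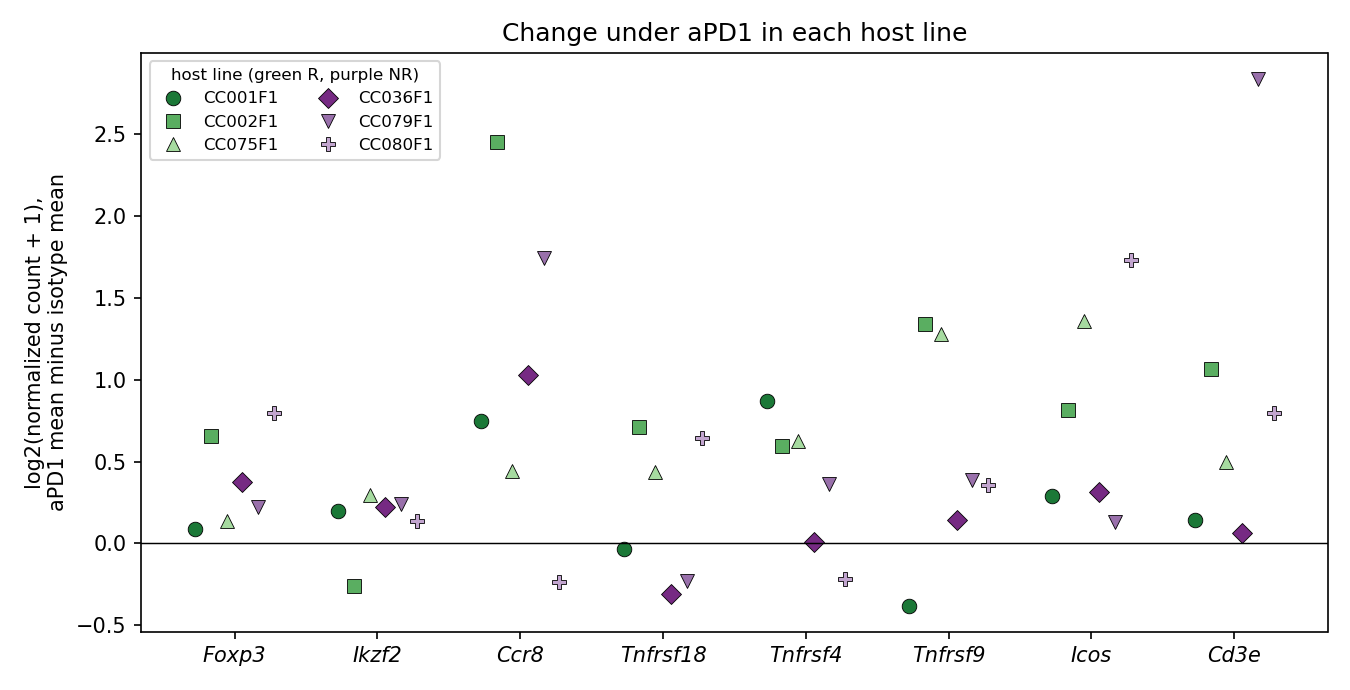
Mean log2(normalized count + 1) of aPD1 tumors minus that of isotype tumors in each host line, for the 7 genes and Cd3e, with R lines in green and NR lines in purple. Foxp3 and Icos are above 0 in all 6 lines, Ccr8 is highest in CC002F1 at 2.46, and Tnfrsf9 is at 1.34 and 1.28 in CC002F1 and CC075F1 but at -0.38 in CC001F1.

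Relative to Cd3e, all 7 estimates had the opposite sign. Over all tumors, Foxp3, Ikzf2, Tnfrsf18, Tnfrsf4 and Tnfrsf9 were lower per Cd3e count in R than in NR tumors in limma, which is 5 of 7 genes, beside 91.5% of all genes tested. Because Cd3e itself was higher in R tumors, nearly every gene was lower on this scale, with a median log2 difference of -1.90 over all genes and -1.56 over the 7 genes. Foxp3 had -1.59 ± 0.49 (adjusted p = 0.00408), Ikzf2 -1.72 ± 0.49 (adjusted p = 0.00227), Tnfrsf18 -1.60 (adjusted p = 0.00356), Tnfrsf9 -1.56 (adjusted p = 0.00356) and Tnfrsf4 -1.38 (adjusted p = 0.015). Icos (-0.80, adjusted p = 0.144) and Ccr8 (-0.78, adjusted p = 0.119) were not called. A two-sided exact permutation test of class within antibody gave p = 0.000574 for Foxp3 and 0.125 for Icos.

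Foxp3 per Cd3e was 0.284 to 0.574 in R aPD1 tumors (median 0.447) and 0.743 to 1.56 in NR aPD1 tumors (median 1.10). The groups did not overlap, which held for 1 of the 7 genes and for 7.25% of all genes in this direction. In isotype tumors the ratio was 0.255 to 0.747 in R hosts and 0.315 to 13 in NR hosts. The highest value came from CC079F1 isotype replicate 2, where Cd3e had 2 counts and the ratio rests on them. Among aPD1 tumors the log2 difference was -1.38 ± 0.44 for Foxp3 (adjusted p = 0.0184), -1.52 ± 0.50 for Ikzf2 (adjusted p = 0.0185) and -1.14 ± 0.46 for Tnfrsf18 (adjusted p = 0.0391), so 3 of 7 genes were called beside 69.4% of all genes. The median log2 difference was -1.63 over all genes and -1.04 over the 7 genes, so the Foxp3 difference was smaller in size than the all-gene median. The exact permutation test gave p = 0.00216 for Foxp3, the smallest that the 462 assignments of single tumors allow. This p largely restates that the groups did not overlap, and the test takes tumors of the same line as separate. The test was run for the 7 genes only, so no share of all genes stands beside this p.

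The other 4 genes were not called among aPD1 tumors, and this does not show that they differed from the 3 called. The log2 difference per Cd3e count was -0.28 for Ccr8 (adjusted p = 0.597), -0.49 for Icos (adjusted p = 0.348), -0.81 for Tnfrsf4 (adjusted p = 0.185) and -1.04 for Tnfrsf9 (adjusted p = 0.053). Over the isotype tumors 0 of 7 genes were called (20.3% of all genes), while 4 had an unadjusted p under 0.05 and 5 passed the exact permutation test unadjusted. No share of all genes stands beside these unadjusted counts. In aPD1 against isotype tumors, 0 of 7 genes passed on this scale within R or within NR lines, with 0 at an unadjusted p under 0.05, beside 0% and 0.138% of all genes called. With Cd4 as the denominator the sign changed: per Cd4 count, Foxp3 had 0.27 over all tumors and 0.26 among aPD1 tumors, and 0 of the 7 genes were called. Cd4 was at 12.8 normalized counts in CC075F1 aPD1 replicate 2, a shallow library, and at 51.5 to 170 in the other 22 tumors. Without the shallow libraries, 0 genes were called among aPD1 tumors and 4 over all tumors.

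**Figure D4:**
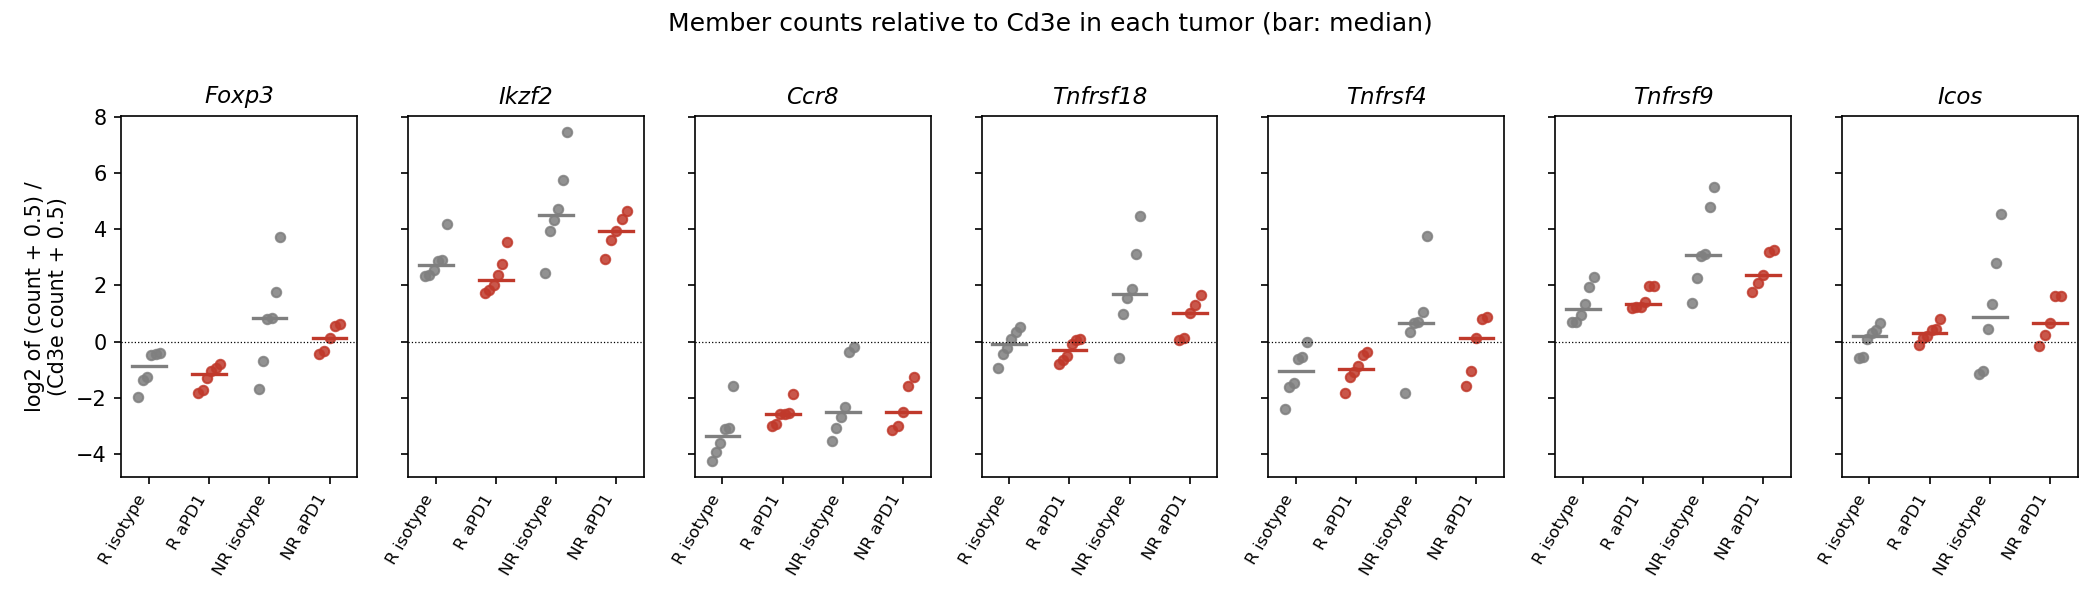
Log2 of (count + 0.5) over (Cd3e count + 0.5) for each of the 7 genes in every tumor, by class and antibody, with bars at medians. Foxp3 in R aPD1 tumors lies below all NR aPD1 tumors, and the highest Foxp3 point comes from CC079F1 isotype replicate 2, which had 2 Cd3e counts.

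The ligands of these receptors were also listed. Of Tnfsf18, Tnfsf4, Tnfsf9, Icosl, Ccl1 and Ccl8, 0 of 6 passed for R against NR over all tumors, beside 14.4% of all genes. Their median log2 difference was 0.27. After aPD1 in R lines, 1 of 4 tested was higher, beside 4.85% of all genes: Tnfsf4, which encodes the ligand of OX40. It had 5.88 to 19.2 normalized counts in R isotype tumors (median 15.3) and 20.4 to 37.3 in R aPD1 tumors (median 29.0). The log2 difference was 1.25 ± 0.36 (adjusted p = 0.0163, and 0.0524 to 0.106 without any 1 of CC001F1 aPD1 replicate 2, CC001F1 isotype replicate 1, CC002F1 aPD1 replicate 1 and CC002F1 isotype replicate 1, the last being the R tumor with lymph node transcripts, and 0.0918 without line CC001F1). In NR lines Tnfsf4 had 3.97 to 23.9 with isotype (median 12.6) and 17.8 to 25.0 with aPD1 (median 22.4), which was not called. Within NR lines 2 of 6 ligands, those of CD137 and of Icos, differed between hosts, beside 9.46% of all genes. Tnfsf9 had a mean of 336 ± 56.7 normalized counts in CC036F1 (SD, n = 4) against 211 ± 33.1 in CC079F1 and 209 ± 30.3 in CC080F1 (adjusted p = 0.000181), and Icosl had 213 ± 71.7 against 428 ± 122 and 444 ± 56.4 (adjusted p = 0.00118).

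Other genes associated with regulatory T cells moved in part. Of 16 listed, 6 of 15 tested were higher in R tumors over all tumors and 0 were lower, beside 7.66% and 6.78% of all genes, with a median log2 difference of 0.46. The 4 with the largest differences were Il10 (1.25 ± 0.44, adjusted p = 0.0368), which encodes an inhibitory cytokine, the inhibitory receptor gene Tigit (1.19 ± 0.32, adjusted p = 0.00363), Entpd1 (0.90 ± 0.15, adjusted p = 2.38e-07), which encodes the ectonucleotidase CD39, and Ebi3 (0.76 ± 0.17, adjusted p = 0.000209). The Il10 call was not made without the shallow libraries (adjusted p = 0.182), without the 2 NR tumors with lymph node transcripts (adjusted p = 0.103), or without any 1 of 10 of the 23 tumors (adjusted p = 0.051 to 0.111). Several of these are also expressed by macrophages and effector T cells. The summed normalized count of 5 macrophage genes was 37740 to 57600 in R aPD1 tumors (median 45560), against 32930 to 40030 in R isotype tumors (median 35570) and 30120 to 34940 in NR aPD1 tumors (median 32030), and its part in these results was not tested. After aPD1 in R lines 5 of 14 were higher, beside 4.85% of all genes, among them Ctla4, an inhibitory receptor, with 51.6 to 154.5 normalized counts in isotype tumors (median 85.7) and 65.3 to 294 in aPD1 tumors (median 200.1), a log2 difference of 1.01 ± 0.25 (adjusted p = 0.00342). Klrg1 (0.91 ± 0.29), Entpd1 (0.70 ± 0.15) and Ebi3 (0.60 ± 0.19) were the next largest. In NR lines 0 of 16 passed. Among isotype tumors 2 of 13 were higher in R hosts, where 5.53% of all genes were called in either direction, and among aPD1 tumors 3 of 15, where 5.94% of all genes were higher.

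Other costimulatory receptors were higher in R tumors in 5 of 7 cases over all tumors, beside 7.66% of all genes, the share that also stands beside the counts over all tumors that follow. Of these, Cd226 (1.69 ± 0.36), Cd27 (1.22 ± 0.27), Cd28 (0.94 ± 0.22) and Cd40 (0.85 ± 0.19), a receptor of antigen-presenting cells, had the largest differences, and the median of the 7 genes was 0.85. Of their ligands, 2 of 5 tested were higher, Cd86 (0.54 ± 0.13) and Tnfsf15 (1.66 ± 0.55). Of 10 adaptor and NF-κB genes, 1 passed over all tumors, Traf1 (0.22 ± 0.06, adjusted p = 0.00222). Among aPD1 tumors, where 5.94% of all genes were higher, it was 2, Traf5 (0.43 ± 0.13) and Nfkbia (0.18 ± 0.06). The T cell list had 12 of 13 genes higher over all tumors, all but Cd4, with a median of 1.13, and 0 of 13 after aPD1 in R lines, with a median of 0.62. The Foxp3 estimate of 0.32 lay below this T cell median and that of Icos (1.06) near it.

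Genes whose levels followed Foxp3 and Tnfrsf9 over the 23 tumors were found as follows. Among 13689 genes with a mean CPM (counts scaled to the library total) of at least 1, on the log2(CPM + 1) scale, those with a Pearson correlation with Foxp3 among the 5 highest included Tnik (r = 0.82), Arhgap26 (0.73), Gpm6b (0.72) and Satb1 (0.72), with Spearman values of 0.70 to 0.78. Satb1 encodes a chromatin organizer of T cells. For Tnfrsf9 they included Prf1 (0.86), Atp2b4 (0.84), Padi2 (0.82) and Gzmb (0.82), with Spearman values of 0.73 to 0.87. Prf1 and Gzmb encode perforin and granzyme B, proteins of cytotoxic granules. The correlation of Foxp3 with Cd3e was 0.56 and that of Tnfrsf9 with Cd3e 0.65. Ikzf2 had a correlation of 0.15 with Foxp3, 0.15 with Cd4 and 0.61 with Cd3e. In CC079F1 isotype replicate 2, Cd3e was at 3.97 normalized counts, while Ikzf2 was at 856, Foxp3 at 63.4, Icos at 113 and Ccr8 at 0. Between the lowest and highest tumor, Cd3e differed by 101-fold and Foxp3 by 3.80-fold. Levels of Ikzf2 and Foxp3 in these bulk samples are therefore not read as a measure of regulatory T cells. Nor is Foxp3 per Cd3e. The correlations describe 23 tumors that share libraries, depth and host lines, and they were not tested.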

How the data were processed

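The labels gave each tumor's host line and antibody, and the study's text gave the class of each line. Per the labels and the study's methods, the authors made poly(A) libraries, mapped 100-base paired reads with Bowtie 1.2.3 to founder-strain transcriptomes built on GRCm38 (mm10) and deposited expected counts per gene, which are not scaled for depth and divide a read among the genes or haplotypes it matches. Of these values, 16.95% were not whole, and they were rounded before testing. GENCODE vM21 named 26681 of the 26869 genes. The libraries of a group were counted as separate samples, since the labels number them as biological replicates.

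R 4.3.3 with DESeq2 1.42.0 (default options) gave normalized counts, Wald tests of class and antibody and likelihood ratio tests of host line. Genes needed 5 summed counts, and calls had a Benjamini-Hochberg adjusted p under 0.05 over all genes tested. Class was fitted across the 23 tumors, adjusting for antibody, and within each antibody, and antibody within R and within NR lines with line as a term. Counts relative to Cd3e were tested on log2((count + 0.5)/(Cd3e count + 0.5)) with limma 3.58.1 and by two-sided exact permutation of single tumors. The tests were run on simulated counts first. Alternatives were edgeR 4.0.16, voom with line as a random effect, other scalings, filters, pseudocounts and denominators, only the 17 deep libraries, and leaving out each tumor or line. Named genes were the 7 genes, Cd3e, at most the 4 largest calls of each further list, and the 5 genes most correlated with Foxp3 and with Tnfrsf9. The genes, lists and tests were chosen with earlier results of these data known, so no count over them is independent support. P-values measure the spread between these tumors. Of the genes ranked by their likeness to Foxp3 and Tnfrsf9, those left out of the text are not reported here.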

Additional observations from a re-analysis of the deposited data

Results flagged for a closer look

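In 56 groups of 5 or 6 tumors, formed by gene, class and antibody on the normalized and the Cd3e-relative scale, 3 held a tumor far from the rest by Dixon's gap ratio (the gap to the nearest tumor over the whole range, above its 95% critical value). Chance alone gives about 1 in 20 groups.

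Ikzf2 in CC075F1 isotype replicate 2 was 819 normalized counts, while the other 5 R isotype tumors were at 1123 to 1247 (gap ratio 0.71). In the same tumor Ccr8 was 46.1 normalized counts against 7.62 to 17.6 in the other 5 (gap ratio 0.739). The level of Ikzf2 relative to Cd3e in CC002F1 isotype replicate 2 was 18.1, with the other 5 R isotype tumors at 5.07 to 7.42 (gap ratio 0.699 on the log2 scale).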

How the results depend on the processing

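The difference between R and NR tumors over all tumors gave 3 called genes, and 1 (Icos) in edgeR, in voom with line as a random effect, without the CC080F1 and CC079F1 aPD1 tumors with lymph node transcripts and without line CC079F1. Among aPD1 tumors the 4 called genes became 1 in edgeR, 0 in voom with line as a random effect, and 2 without line CC002F1 or without line CC036F1. Among isotype tumors the count went from 0 to 1 without line CC075F1. For aPD1 against isotype in R lines it went from 0 to 3 in deep libraries only, 2 without line CC001F1 and 1 without the 3 tumors with Glycam1 counts, an alternative chosen after seeing the data. Relative to Cd3e, the 3 genes called among aPD1 tumors became 0 in deep libraries or with Cd3d or Cd4 as denominator, 1 with Trac and 5 with line as a random effect. Over all tumors the 5 became 4 with line as a random effect and 0 with Cd4. Among isotype tumors the 0 became 5 with the stricter filter or the unadjusted exact permutation test, and 4 with Trac or a pseudocount of 2. The causes were not tested.

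Leaving out each tumor in turn gave 2 to 3 called genes over all tumors, 3 to 5 among aPD1 tumors and 0 to 1 among isotype tumors (1, Ikzf2, without CC075F1 isotype replicate 2). It gave 0 to 3 for aPD1 in R lines, where the count was above 0 without CC001F1 aPD1 replicate 1 (3), CC075F1 aPD1 replicate 2 (2), CC075F1 isotype replicate 2 (2), CC001F1 isotype replicate 2 (1) or CC002F1 isotype replicate 1 (1). It gave 0 to 1 for host line within R, and 0 for host line within NR, aPD1 in NR lines and the difference of effects. Relative to Cd3e it gave 5 to 5 over all tumors, 0 to 4 among aPD1 tumors (0 without CC079F1 aPD1 replicate 2) and 0 to 5 among isotype tumors (above 0 without CC080F1 isotype replicate 1, CC002F1 isotype replicate 2 or CC036F1 isotype replicate 1), and 0 for both antibody contrasts. Shares of all genes are not given beside these counts, which show only how the calls depend on single tumors.

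Some log2 differences changed sign. With Cd4 as denominator the all-tumor and aPD1 values were 1.09 and 1.36 for Ccr8, 0.27 and 0.26 for Foxp3, 1.06 and 1.16 for Icos, 0.15 and 0.12 for Ikzf2, 0.27 and 0.50 for Tnfrsf18, 0.49 and 0.83 for Tnfrsf4 and 0.31 and 0.60 for Tnfrsf9. With Cd3d the aPD1 values were 0.38 for Ccr8 and 0.16 for Icos. For Foxp3 the difference of effects was 0.047 in deep libraries, 0.11 without the NR tumors with lymph node transcripts, 0.23 without the 3 Glycam1 tumors and -0.34 to 0.035 without single tumors. Ikzf2 in R lines had -0.00062 without line CC001F1, -0.038 without CC075F1 and -0.015 to 0.14 without single tumors. Among isotype tumors Tnfrsf18 had -0.15 in deep libraries, -0.0084 in voom, -0.051 without line CC001F1, -0.12 without CC080F1 and -0.085 to 0.13 without single tumors, and Tnfrsf9 had -0.47, -0.17 and -0.37 in deep libraries, in voom and without CC001F1, and -0.12 to 0.28 without single tumors. In NR lines the aPD1 difference of Tnfrsf18 was 0.066 without CC036F1, 0.028 without CC079F1 and -0.28 to 0.015 without single tumors. That of Tnfrsf4 was -0.076 without CC079F1 and -0.077 to 0.17 without single tumors, and that of Tnfrsf9 was -0.12 in deep libraries. Among aPD1 tumors the B cell gene Ms4a1 had 0.88 without the lymph node tumors. None of the values named here as changing sign passed the test in its main form, except Foxp3, Ikzf2, Tnfrsf18, Tnfrsf4 and Tnfrsf9 relative to Cd3e and Ms4a1.

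Tumors shared only a replicate number: within a line, the isotype and aPD1 deviations of same-numbered tumors correlated at -0.0444 to 0.238. With replicate number as a block, the called genes were 3 over all tumors, 0 among isotype tumors and 4 among aPD1 tumors. Among all genes tested, 2586 of 16615, 1005 of 14504 and 1252 of 17154 were called in these fits. In the antibody, interaction and line tests the called genes were 0. Relative to Cd3e, they were 5, 4 and 4 over all, isotype and aPD1 tumors. Beside them, 24475 of 26341, 19677 of 24537 and 17675 of 24927 of all genes were called. Most genes were therefore called on this scale, so these counts do not set the named genes apart. Depth limits Ccr8 most, with 0 counts in 1 tumor, and ratios to Cd3e in NR isotype tumors, where Cd3e fell to 2 counts.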

Other observations

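Marker lists of other cell types gave the following counts, beside 7.66% of all genes higher and 6.78% lower in R tumors over all tumors. Over all tumors, R against NR, 3 of 5 natural killer cell genes were higher (median log2 difference 0.87), led by Klrk1 (1.69 ± 0.23, adjusted p = 3.64e-10), and 4 of 5 macrophage genes were higher (median 0.37), led by C1qa (0.57 ± 0.11, adjusted p = 7.92e-06). In the endothelial list 1 of 5 was higher, Pecam1 (0.52 ± 0.17, adjusted p = 0.0201), in the mast cell list 1 of 4 tested, Kit (0.39 ± 0.14, adjusted p = 0.0396), and in the mature dendritic cell list 1 of 5 was lower, Cacnb3 (-0.29 ± 0.10, adjusted p = 0.021). Of the B cell and lymph node list 0 of 8 tested passed over all tumors. Among aPD1 tumors, where 7.93% of all genes were called in either direction, 6 of 8 were lower in R hosts. Among them, Igkc was 2049 and 218 normalized counts in the NR aPD1 tumors with Glycam1 counts, CC080F1 aPD1 replicate 1 and CC079F1 aPD1 replicate 1, and 51.5 to 160 in the other 3 NR aPD1 tumors. Ms4a1 was 401 and 183 in the same tumors and 4.48 to 7.485 in the other 3, and its difference changed sign without the lymph node tumors. The single MC38 gene, Shisal2b, did not pass between the classes. In the 5 NR aPD1 tumors the ranks of the lymph node tumors differed by gene: CC080F1 aPD1 replicate 1 was the highest for Foxp3 and the lowest for Tnfrsf4.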
